A study of Mus musculus with 19 samples.

Results

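The tiles of the mouse genome that carried strong H3K9me3 in control embryonic stem cells (ESCs) were described, and their marks were followed after deletion of *Dnmt1*. A tile is a 2 kb stretch, and its value is the log2 ratio of the reads counted to those expected from an even spread over the genome. A tile was taken if it lay on chromosomes 1 to 19, had an Input value of at least -1.5, had H3K9me3 at least 2 above Input (4-fold) and had H3K27me3 less than 1 above Input. The members were thus chosen by H3K9me3 and H3K27me3 of the day 4 control libraries and by Input. The rule was met by 7868 tiles, 0.713% of the 1103606 tiles on these chromosomes past the Input minimum and 0.593% of all 1327469 tiles. The 1095738 tiles that passed the Input minimum but not the rule are called other tiles.

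ChIP-seq, the sequencing of DNA bound to a histone mark, had covered H3K27me3, H3K9me2 and H3K9me3 in pluripotent mouse ESCs grown in serum with LIF. Each mark had 1 control and 1 *Dnmt1* conditional knockout (cKO, labelled DNMT1KO) library at day 4, and 2 of each at day 8. The single Input library, chromatin without immunoprecipitation, came from control cells. The comparison asks how these marks differ once DNA methylation is no longer maintained. The labels give the genotypes Wildtype and Dnmt1 KO and the background strain E14. The methods of the study describe a *Dnmt1* loxP/loxP line of strain C57BL/6, in which tamoxifen switches on Cre and Cre removes the gene. The methods describe a single serum medium, used with or without feeders, and do not say whether the control cells of the ChIP-seq received tamoxifen. Effects of tamoxifen or feeders thus cannot be told apart from genotype. Whether replicates came from separate cultures is not given in the sources used here, so p-values measure the spread between these libraries, which may be technical. The methods treat the ChIP-seq as a single measurement without a test, although day 8 libraries carry replicate numbers 1 and 2 in the labels, so every p-value and every SD over pairs here rests on taking the labelled replicates as separate. The labels raise the catalogue number of the H3K27me3 antibody by 1 from library to library at day 8, whereas the methods list one such antibody, and which is right cannot be told from the files.

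ChIP libraries held 14627174 to 26181489 reads in tiles, and cKO replicate 1 of H3K9me3 at day 8 held 5669098. Since this library is shallow, reads are given beside the log2 values, which are scaled to library size. In the tile deleted from *Dnmt1*, the day 8 control libraries held 7 to 11 reads and the cKO libraries 0 or 1. The promoters of 6 genes that mark ESCs (*Pou5f1*, *Nanog*, *Sox2*, *Esrrb*, *Zfp42* and *Klf4*) held no strong H3K9me3 tile, and these marks, which go with silencing, cannot check the cell type further.

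H3K9me3 is trimethylation of lysine 9 of histone H3, a mark of silent heterochromatin. In ESCs it is known at endogenous retroviruses, where KRAB zinc finger proteins recruit TRIM28 and the H3K9 methyltransferase SETDB1, and at imprinting control regions, where it sits on the DNA-methylated allele. The zinc finger protein ZFP57 binds the letters TGCCGC when the CpG in them is methylated, and DNMT1 is the enzyme that copies CpG methylation after DNA replication.

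The sequences below are from NCBIM37. The first group holds 300-base windows of 4 tiles with significantly less H3K9me3 in cKO cells, with TGCCGC or its reverse complement GCGGCA in capitals. They are shown because the tiles were dense in CpG and 3 of the 4 windows held this motif. Windows avoid annotated UTRs, and all are on the plus strand.
*Zrsr1*/*Commd1* tile, chr11:22872337-22872636: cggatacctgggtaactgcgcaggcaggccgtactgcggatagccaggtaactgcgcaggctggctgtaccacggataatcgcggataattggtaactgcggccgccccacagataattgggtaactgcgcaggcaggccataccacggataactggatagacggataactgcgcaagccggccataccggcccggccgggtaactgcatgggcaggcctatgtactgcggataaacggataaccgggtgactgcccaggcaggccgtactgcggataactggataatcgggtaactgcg
*Peg3* tile, chr7:6682156-6682455: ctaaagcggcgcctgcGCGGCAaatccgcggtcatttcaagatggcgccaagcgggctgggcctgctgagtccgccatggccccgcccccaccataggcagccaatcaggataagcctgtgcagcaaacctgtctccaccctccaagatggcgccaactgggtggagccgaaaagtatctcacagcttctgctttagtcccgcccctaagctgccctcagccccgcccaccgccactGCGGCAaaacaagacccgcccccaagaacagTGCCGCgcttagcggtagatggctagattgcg
*Inpp5f* tile, chr7:135831476-135831775: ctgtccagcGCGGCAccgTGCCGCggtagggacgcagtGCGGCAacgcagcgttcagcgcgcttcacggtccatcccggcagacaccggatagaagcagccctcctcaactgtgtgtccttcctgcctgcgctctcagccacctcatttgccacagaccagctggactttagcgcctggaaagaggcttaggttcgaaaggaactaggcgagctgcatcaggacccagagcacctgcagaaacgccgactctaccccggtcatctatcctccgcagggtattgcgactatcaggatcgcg
*Zfp13* tile, chr17:23713214-23713513: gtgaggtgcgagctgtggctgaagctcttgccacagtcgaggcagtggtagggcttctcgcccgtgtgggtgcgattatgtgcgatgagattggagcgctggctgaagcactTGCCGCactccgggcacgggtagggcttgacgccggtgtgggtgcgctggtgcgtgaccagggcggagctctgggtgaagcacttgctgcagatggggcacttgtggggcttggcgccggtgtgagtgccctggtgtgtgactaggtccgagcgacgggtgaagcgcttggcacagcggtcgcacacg
The *Zrsr1*/*Commd1* window held 25 CpG sites and no motif, although its whole tile held 2 motifs. The *Peg3* and *Inpp5f* windows held 3 motifs each, with 21 and 25 CpG sites. A match of letters is a description of the sequence and not a measured binding site.

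The second group shows what the tile with the highest day 8 control H3K9me3, Input not subtracted, and the tiles with shared repeats look like. The first line is from an intron of *Tcte2* and held 0 CpG sites. The others are 31-base words found in many strong H3K9me3 tiles.
*Tcte2* tile, plus strand, chr17:13744001-13744300: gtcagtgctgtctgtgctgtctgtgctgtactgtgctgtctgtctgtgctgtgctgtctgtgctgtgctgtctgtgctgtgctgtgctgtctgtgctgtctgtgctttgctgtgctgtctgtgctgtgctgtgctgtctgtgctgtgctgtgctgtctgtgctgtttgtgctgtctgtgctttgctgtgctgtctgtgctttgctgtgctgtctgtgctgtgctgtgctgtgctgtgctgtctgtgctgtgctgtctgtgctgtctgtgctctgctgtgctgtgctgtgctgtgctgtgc
31-mer 1, plus strand, for example chr3:144281984-144282014: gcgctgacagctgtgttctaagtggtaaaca
31-mer 2, minus strand, for example chr19:45277614-45277644: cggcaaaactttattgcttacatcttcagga
31-mer 4, minus strand, for example chr8:93300106-93300136: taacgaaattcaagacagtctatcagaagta
The *Tcte2* sequence is a run of the letters ctgt and close variants. 31-mers 1 and 2 resemble the long terminal repeat of IAP elements, a family of endogenous retroviruses. This resemblance is taken from background knowledge, and no repeat annotation was used here.

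Strong H3K9me3 tiles lay mostly between genes. Of the 7868 tiles, 6103 (77.6%) were intergenic, against 54.9% of other tiles, and 1234 (15.7%) were intronic, against 28.8%. Coding exons were overlapped by 323 tiles (4.11%, against 12.5% of other tiles), and 3.90% lay within 5 kb of a gene start, against 8.43%. Within 50 kb of a start the shares were close, 46.3% and 44.4%. The tiles were thus sparse in and directly beside genes, but not far from them.

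**Figure D1:**
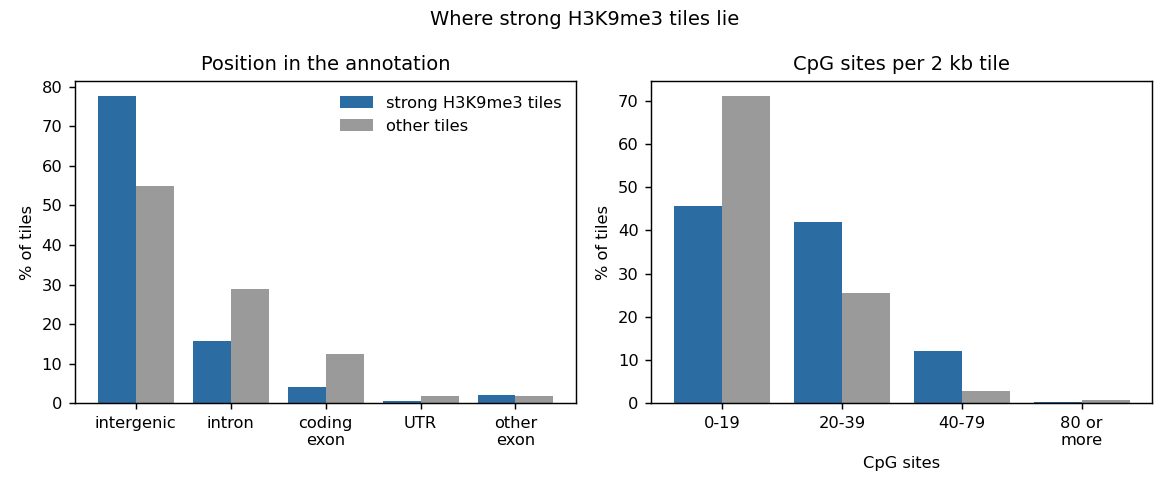
Share of tiles in percent by position in the annotation (left) and by the number of CpG sites in the 2 kb tile (right). Blue bars are the 7868 strong H3K9me3 tiles and grey bars the other tiles. Intergenic tiles made up 77.6% of the strong tiles and 54.9% of the others, and tiles with 40 to 79 CpG sites 12.1% and 2.83%.

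CpG sites were more frequent in them. The median strong tile held 21 CpG sites against 14 in other tiles, and the median GC fraction was 0.441 against 0.416. Tiles with 40 to 79 CpG sites made up 12.1% of strong tiles and 2.83% of other tiles. In contrast, tiles with 80 or more, which is typical of CpG islands, were rarer (0.292% against 0.770%). Input was lower in strong tiles, with a median of 10 reads against 16, but the rule subtracts Input and so favours tiles of low Input. High-copy tiles, in which at least 50% of sampled 31-mers occurred 50 or more times in the genome, made up 2.95% of strong tiles and 1.08% of other tiles. Reads of low mapping quality had been discarded, which removes reads from near-identical repeats.

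Most strong tiles stood alone. They formed 6493 runs of adjacent tiles, and 5509 tiles (70.0%) had no strong neighbour, while 923 tiles were in runs of 3 or more. The longest run held 14 tiles at chr10:82896001-82924000, an intergenic stretch whose tiles lay 73884 bp or more from a gene start. Its tiles held 81 to 188 reads in day 8 control replicate 1 and 53 to 126 in replicate 2. In cKO they held 17 to 46 and 43 to 106 reads, and their mean H3K9me3 differences (log2 cKO minus control) lay between -0.56 and -0.15, with no tile past the test described below. The share of strong tiles per chromosome ranged from 0.467% on chromosome 2 to 1.09% on chromosome 7, where 670 tiles lay.

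Of 22650 protein-coding and lincRNA genes, 1059 (4.68%) held a strong tile in their body or 1 kb upstream. A longer gene has more tiles that could be strong, and neither this share nor those of the gene lists below were adjusted for length. The genes with the most were largely long. *Gm20388*, annotated over 4435 kb, held 15 tiles and *Sdk1*, a cell adhesion gene of 974 kb, held 10. *Cdh13*, which encodes a GPI-anchored cadherin of 1041 kb, held 8. *Hs6st3*, a heparan sulfate sulfotransferase gene, held 7. *Ccdc11*, a gene linked to cilia, was denser, with 12 tiles in 76.9 kb. The lincRNA gene *Gm16889* held 11, *Cep57l1* 10 and *Gm6804* 9.

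*Arhgap10* held 11 tiles, and their mean H3K9me3 differences between cKO and control were -0.84 and -0.95 in the day 8 pairs. None of these tiles passed the test. *Ezr*, which encodes the membrane linker ezrin, held 7 tiles in 44.7 kb, and their mean differences were -2.33 and -2.51, with 5 tiles past the test. The mean differences of the other 8 genes lay between -0.31 and 0.25 in both pairs. *Alk*, a receptor tyrosine kinase gene, tied with *Ezr* and *Hs6st3* at 7 tiles and came after them by level, with 0.50 and 0.12. Among the 10 genes with the most strong tiles, mean differences below this range in both pairs were thus seen at *Arhgap10* and *Ezr*.

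The values that chose the tiles are given as a description. H3K9me3 over Input in the day 4 control library had a median of 2.28 and a highest value of 4.39, and 471 tiles (5.99%) reached 3. The nearest tiles inside and outside the H3K9me3 threshold had 2.001 and 1.998, those at the H3K27me3 threshold 0.992 and 1.009, and those at the Input threshold -1.41 and -1.63. The other criteria were met by 727 tiles with more H3K27me3 and by 8283 tiles with less Input. Tiles just inside the H3K9me3 threshold (2 to 2.1, 1637 tiles) had mean day 8 control levels of 1.31 and 1.07, and tiles just outside (1.9 to 2, 1825 tiles) had 1.26 and 1.03. The set therefore has no natural edge at its threshold.

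The day 8 libraries, which the rule did not use, also held H3K9me3 at these tiles. The mean log2 level was 1.68 and 1.35 in the day 8 control replicates, against -0.56 and -0.53 in other tiles. In the cKO replicates it was 1.63 and 1.13, against -0.71 and -0.52. At day 4 it was 1.53 in control, which the rule used, and 1.25 in cKO. H3K9me3 was thus high in all 6 libraries, and control and cKO overlapped at day 8.

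At least 4-fold over Input were 83.8% and 66.7% of strong tiles in the day 8 control replicates and 77.2% and 52.2% in the cKO replicates. Of other tiles, at most 1.10% reached this in a day 8 library. The strong tiles took 2.80% and 2.13% of all H3K9me3 reads in control and 2.80% and 1.86% in cKO. Replicate 2 was lower than replicate 1 in both genotypes, by more than the genotypes of the same replicate number differed.

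**Figure D2:**
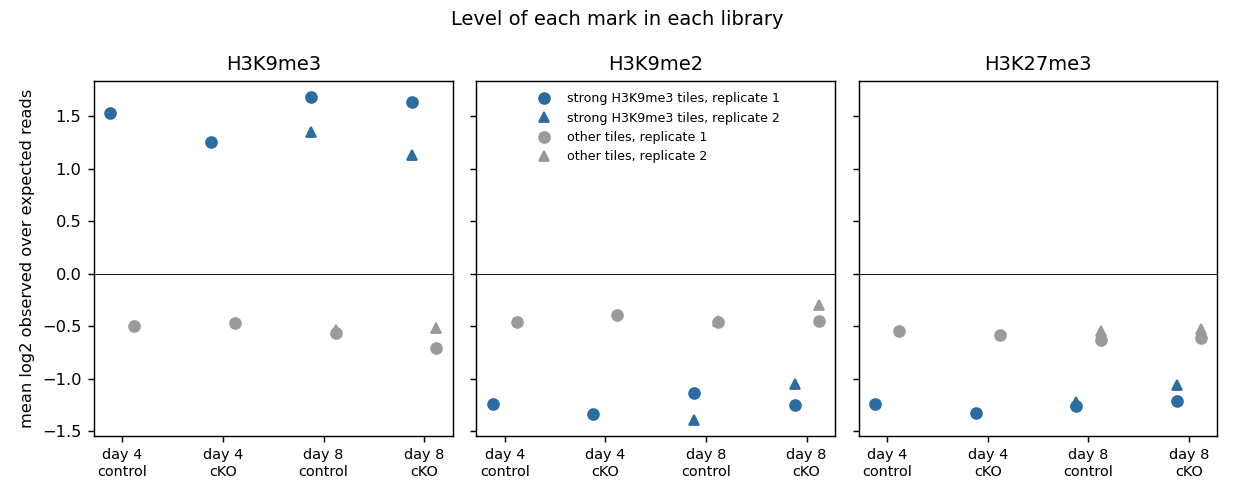
Mean log2 of observed over expected reads in each library, for H3K9me3 (left), H3K9me2 (middle) and H3K27me3 (right), in strong H3K9me3 tiles (blue) and other tiles (grey). Circles are replicate 1 and triangles replicate 2, with 1 library per genotype at day 4. Strong tiles were at 1.13 or higher in every H3K9me3 library and below other tiles in every H3K9me2 and H3K27me3 library.

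The mean levels of the other marks were lower at these tiles. In H3K9me2, the dimethylated state of the same lysine, strong tiles were below other tiles, with differences of -0.78 and -0.94 in the day 4 control and cKO libraries. At day 8 they were -0.67 and -0.94 in control and -0.80 and -0.75 in cKO. The mean of the 6 libraries was -0.81 ± 0.11 (SD, n = 6), lower in 6 of 6, with an exact permutation test over sign changes of two-sided p = 0.03125, the smallest this design allows. Input was lower at strong tiles too (difference -0.58). With Input subtracted the mean was -0.24 ± 0.11, and against other tiles of the same Input reads -0.64 ± 0.12 (SD, n = 6). The rule used this Input library and favours tiles of low Input, so the sign of the raw difference was partly set by it. The 6 libraries also hold the same tiles and mix days and genotypes. The p-value is thus no independent evidence, and all these values are a description. At least 2-fold over Input in H3K9me2 were 8.08% and 8.07% of strong tiles in day 8 control, against 7.08% and 8.59% of other tiles, and 8.57% and 6.05% against 8.94% and 5.11% in day 8 cKO. The mean was thus lower, whereas the share of tiles past this level was similar.

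H3K27me3, the mark of Polycomb repression, was below other tiles in all 6 libraries, with differences of -0.74 to -0.54. With Input subtracted the differences ran from -0.17 to 0.04. The rule had removed tiles with high H3K27me3 in the day 4 control library, so this is a description. At least 2-fold over Input in H3K27me3 were 2.35% and 3.37% of strong tiles in day 8 control and 5.30% and 8.63% in day 8 cKO. In other tiles these shares were 9.14% and 9.26% in control and 11.3% and 10.7% in cKO.

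Mean H3K9me3 over all strong tiles differed from other tiles by no more than the spread between the day 8 pairs, which follow the replicate number. The difference (log2 cKO minus control, used throughout) was -0.05 in pair 1 and -0.21 in pair 2, and in other tiles -0.14 and 0.02. Relative to other tiles it was 0.09 and -0.23, with a mean of -0.07 ± 0.23 (SD, n = 2 pairs), smaller than the spread between pairs. Pair 1 turned below 0 with summed reads (-0.0083, with -0.21 in pair 2), with GC bins (-0.0062 and -0.32) and with a threshold of 3 in the rule (-0.03 and -0.38). No exact test of 2 libraries against 2 can pass at 0.05, since its smallest two-sided p is 0.333. At day 4 the difference was -0.28 in strong tiles and 0.03 in other tiles, but that control library had chosen the tiles, so part of this is fixed by the rule.

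The relative difference of the other marks was also no larger than its spread over pairs by replicate number. For H3K9me2 it was -0.13 and 0.19 in the day 8 pairs, a mean of 0.03 ± 0.23 (SD, n = 2 pairs). For H3K27me3 the values were 0.02 and 0.14, a mean of 0.08 ± 0.09 (SD, n = 2 pairs). Another pairing of the same libraries would give other SDs. The H3K27me3 level of strong minus other tiles was -0.63 and -0.68 in day 8 control and -0.61 and -0.54 in cKO. By library the groups thus did not overlap, though the difference was small.

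Single tiles were then tested with limma at day 8 over all tiles with a read, with a trend of variance on level and Benjamini-Hochberg adjusted p-values. In H3K9me3, 48 of the 7868 strong tiles passed the adjusted threshold of 0.05 as lower in cKO and 0 as higher. Over all 1256638 tiles tested, 0.00812% passed as lower and 0.000398% as higher, and the 48 tiles were 47.1% of the 102 lower calls. The rule took tiles with high H3K9me3 in a control library, so tiles high only in cKO were left out. Other tiles also held fewer H3K9me3 reads to lose. The direction of the calls and the 47.1% were thus partly set by the rule and are a description. At an unadjusted p under 0.05 there were 600 lower and 133 higher strong tiles, together 9.32% against 7.84% of all tiles tested, and limma-voom also gave 0 higher. The 48 tiles formed 32 loci, and their changes ran from -3.76 to -1.92.

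This count depended on the fit and on single libraries. It was 84 with limma-voom on recovered reads (background 0.0212% of tiles lower) and 111 among tiles with a mean of at least 10 reads (0.0996%). It was 5 with a replicate block, and 0 without the trend or with libraries centred in bins of GC content. Without control replicate 1 it was 8 and without control replicate 2 it was 55. Without cKO replicate 1 it was 203, and without cKO replicate 2, which leaves only the shallow library, it was 408, of which 155 were higher. In the day 4 pair all 48 tiles were lower (mean difference -0.64), as were 81.4% of all strong tiles, and that pair holds the control library of the rule.

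A count by size alone gave no excess. At least 2-fold lower in both day 8 pairs were 163 strong tiles (2.07%), against 2.13% of all 1103606 tiles past the Input minimum, and at least 2-fold higher were 4, against 1.06%. Strong tiles held more H3K9me3 reads, with a median of 59 and 49 in the control libraries against 13 and 14, so counting error alone moves them less.

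**Figure D3:**
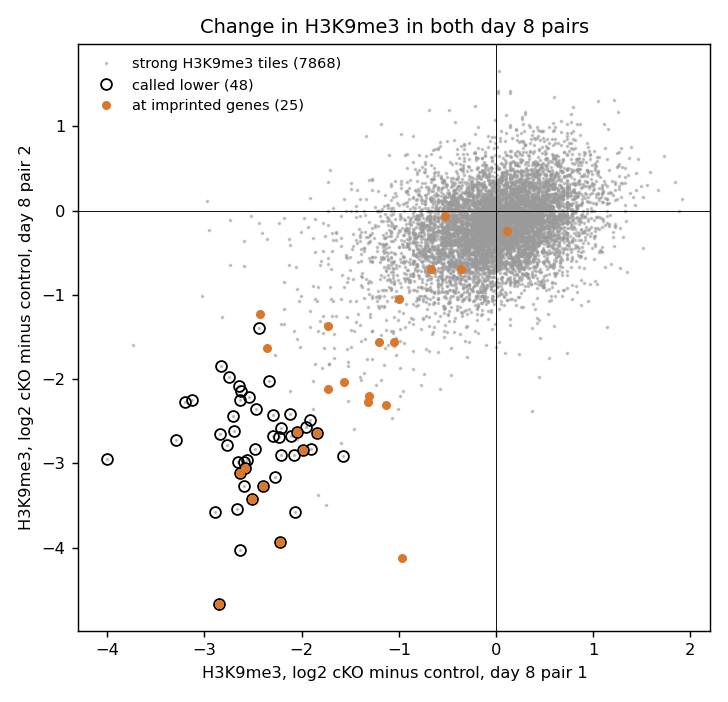
H3K9me3 change (log2 cKO minus control) of each strong tile in day 8 pair 1 (horizontal) and pair 2 (vertical). Grey points are all 7868 tiles, open circles the 48 lower tiles past the limma test and orange points the 25 tiles at imprinted genes. Most tiles lie near 0, and the 48 tiles lie at -1.39 or lower in both pairs.

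Of the 6 tiles at least 10 kb apart with the largest significant falls, 3 were at imprinted genes. The largest was at *Zrsr1*, an imprinted gene related to a splicing factor, in an intron of *Commd1* (chr11:22872001-22874000, coding exon, 113 CpG sites). It held 143 and 76 reads in day 8 control and 6 and 3 in cKO, at log2 levels of 2.96 and 2.01 against 0.11 and -2.66. The groups did not overlap, and the change was -3.76 ± 0.51 (SE, limma adjusted p = 0.00135). The neighbouring *Commd1* tile (chr11:22870001-22872000) fell by 2.82.

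*Peg3*, an imprinted gene for a zinc finger protein that is expressed from the paternal allele, had its tile 131 bp from the start (chr7:6682001-6684000, UTR, 94 CpG sites). Reads were 185 and 91 in control and 12 and 6 in cKO, at log2 levels of 3.33 and 2.27 against 1.11 and -1.66. The change was -3.08 ± 0.49 (SE, limma adjusted p = 0.0111). The tile at *Nnat*, an imprinted gene inside an intron of *Blcap*, lay at chr2:157384001-157386000 (coding exon, 59 CpG sites). Its reads were 170 and 107 in control and 9 and 10 in cKO, at log2 levels of 3.21 and 2.50 against 0.70 and -0.93, a change of -2.97 ± 0.39 (SE, limma adjusted p = 0.000929). In both tiles every control library lay above every cKO library, and the cKO replicates differed from each other by more than the control replicates.

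The other 3 were at genes outside the imprinted list. *Polrmt*, which encodes the mitochondrial RNA polymerase, had a tile over a coding exon (chr10:79204001-79206000, 37 CpG sites) with 53 and 46 reads in control and 1 and 6 in cKO. Its log2 levels were 1.53 and 1.28 against -2.47 and -1.66, a change of -3.47 ± 0.47 (SE, limma adjusted p = 0.00135). Its 2 neighbours in the same gene fell by 3.24 and by 3.10, and held 270 and 143 and 210 and 139 control reads.

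*Zfp13*, a zinc finger gene, had a coding exon tile (chr17:23712001-23714000, 78 CpG sites) with 144 and 97 reads in control and 7 and 6 in cKO. The levels were 2.97 and 2.36 against 0.34 and -1.66, a change of -3.33 ± 0.42 (SE, limma adjusted p = 0.000762). The tile 1045 bp from the start of *Ptprg*, a receptor tyrosine phosphatase gene, was annotated intergenic (chr14:12384001-12386000, 83 CpG sites). It held 97 and 72 reads in control and 3 and 11 in cKO, at levels of 2.40 and 1.93 against -0.89 and -0.79. The change was -3.00 ± 0.35 (SE, limma adjusted p = 0.000539). In none of the 3 tiles did the groups overlap.

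These 6 adjusted p-values lay between 0.0545 and 0.213 with a replicate block and between 0.108 and 0.609 with GC bins, and all were 0.773 without the trend. With limma-voom all 6 passed. The *Polrmt* tile did not pass without control replicate 1 or control replicate 2 (adjusted p = 0.854 and 0.264, limma), nor the *Ptprg* tile without control replicate 1 (adjusted p = 0.0749).

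No strong tile passed as higher, a direction that the rule partly set by taking tiles high in a control library. The 3 tiles at least 2-fold higher in both pairs with the largest mean difference were near *Galr1*, in an intron of *Manba*, which encodes a lysosomal mannosidase, and near *Gm17542*. The *Manba* tile (chr3:135156001-135158000) held 18 and 15 reads in control and 13 and 34 in cKO, at levels of -0.03 and -0.34 against 1.23 and 0.84. The 3 differences were 1.26, 1.22 and 1.18 (limma adjusted p = 0.565, 0.532 and 0.524). Without cKO replicate 2 the *Manba* and *Gm17542* tiles passed (adjusted p = 0.017 and 0.00341), with the shallow library alone on the cKO side.

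The 48 lower tiles differed in position from the strong tiles as a whole. Coding exons were overlapped by 22 of them (45.8%), introns held 12 and 8 were intergenic. Their median was 44.5 CpG sites per tile, against 21 in the strong tiles that did not pass, and they held a median of 90.5 reads in the day 8 control libraries, against 53. None was high-copy. Tiles with more reads pass a test more easily, and the part of this in the difference was not tested.

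TGCCGC or its reverse complement was found in 70.8% of the 48 tiles, in 28.1% of all strong tiles and in 11.0% of other tiles. CpG content moves with this, since the motif holds a CpG. Among tiles with 40 or more CpG sites, the motif was in 92.3% of the 26 lower tiles, 67.6% of the 952 strong tiles that did not pass and 46.6% of other tiles. Per 100 CpG sites these classes held 4.67, 2.09 and 1.10 motifs. The part of the motif in the loss was not tested.

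The imprinted list held 35 genes beside control regions that are DNA-methylated in the germline, and 16 of them (45.7%) held 25 strong tiles, against 4.68% of all genes. The part of gene length in this share was not tested. The list was made with earlier results of these data known, so its direction is not independent evidence. H3K9me3 was lower in cKO in 24 of the 25 tiles in pair 1 and in 25 in pair 2, and 19 were at least 2-fold lower in both. The mean difference was -1.61 and -2.19, and the median -1.73 and -2.20, against medians of -0.0013 and -0.18 over all strong tiles. Relative to other tiles the mean was -1.84 ± 0.52 (SD, n = 2 pairs), larger than the spread between pairs. The single test was passed by 9 of the 25 tiles.

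**Figure D4:**
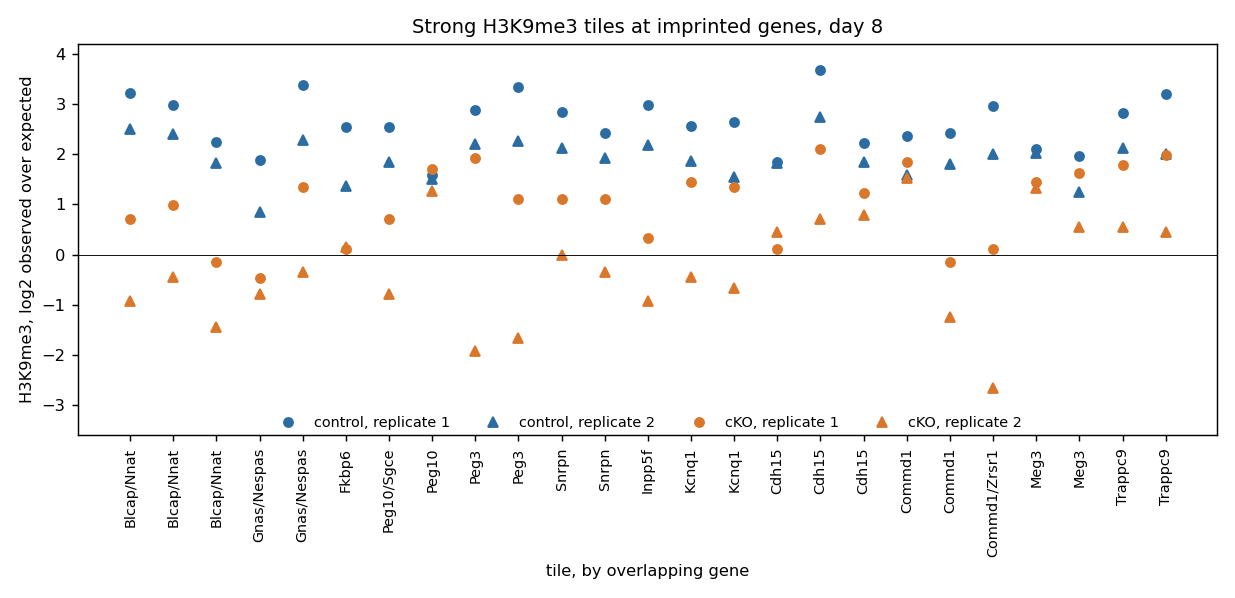
H3K9me3 (log2 observed over expected) in each day 8 library at the 25 strong tiles of the imprinted list, named by the gene they overlap. Blue symbols are control and orange symbols cKO, with circles for replicate 1 and triangles for replicate 2. cKO lies below control in both pairs at 24 of the tiles, and the second *Peg10* tile stays at 1.27 to 1.70 in all 4 libraries.

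*Nnat* and *Blcap* shared 3 tiles, which all passed, with mean changes of -2.30 and -3.18. *Commd1* had 3 tiles, of which 2 passed, with mean changes of -1.98 and -2.59. The third, at another coding exon (chr11:22800001-22802000), held 95 and 57 reads in control and 20 and 55 in cKO, a difference of -0.29. *Cdh15*, which encodes M-cadherin, had 3 tiles at its last exons with mean differences of -1.43 and -1.48 and none past the test. These 4 genes had the most tiles of the list.

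Further genes of the list were chosen after their values were seen. A tile at the shared start of *Peg10*, a retrotransposon-derived gene, and *Sgce* fell by 2.24 (limma adjusted p = 0.0266), and one in *Inpp5f*, a phosphoinositide phosphatase gene, by 2.87 (0.000892 by the same test). A *Gnas*/*Nespas* tile fell by 2.34 (limma adjusted p = 0.0296), while the other one (chr2:174118001-174120000) had a difference of -2.00 that did not pass (0.110 by the same test). The second *Peg3* tile (chr7:6680001-6682000) had -0.97 and -4.13 in the 2 pairs and did not pass either (limma adjusted p = 0.338). *Snrpn*, *Kcnq1* and *Trappc9* had 2 tiles each, with differences of -1.92 to -1.30 that did not pass. The differences were -0.68 and -0.52 at 2 *Meg3* tiles and -0.06 at the second *Peg10* tile (chr6:4704001-4706000), 7695 bp from the start. At *Meg3* the DNA-methylated control region is known to lie upstream of the gene.

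Losses of the same size were seen outside the list, at genes also chosen after their values were seen. *Habp4*, which encodes a hyaluronan-binding protein, had 5 adjacent tiles that passed (chr13:64266001-64276000), with mean changes of -2.20 and -2.68. Its central tile went from 312 and 185 reads to 16 and 24. *Ezr* had 5, in a run of 7 (chr17:6942001-6956000, part of it shared with *Sytl3*), with mean changes of -2.47 and -2.61. *Impact*, imprinted in the mouse but not in the list, and *Nhlrc1*, a ubiquitin ligase gene, also had tiles that passed.

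**Figure D5:**
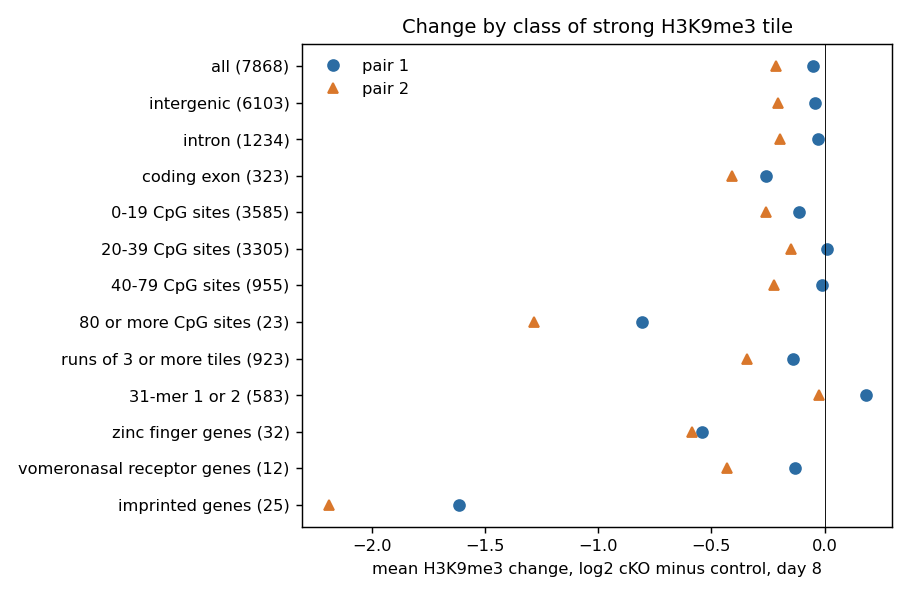
Mean H3K9me3 change (log2 cKO minus control) at day 8 in classes of strong tiles, with the number of tiles in brackets. Circles are pair 1 and triangles pair 2. All strong tiles lie at -0.05 and -0.21, tiles with 31-mer 1 or 2 at 0.18 and -0.03, and tiles at imprinted genes at -1.61 and -2.19.

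Zinc finger genes, many of which encode KRAB repressors and are known H3K9me3 targets themselves, held 32 strong tiles in 22 of 385 genes (5.71%), close to the 4.68% of all genes. Their mean difference was -0.54 and -0.58 and the median -0.23 and -0.21, so a few tiles carried the mean. The test was passed by 4 tiles, at *Zfp777*, *Zfp668* and *Zfp13*. The genes with the most tiles were *Zfp462*, *Zfp420*, *Zfp445* and *Zfp11*, none with a tile past the test. *Zfp445*, whose protein is known to act at imprinted regions, had differences of -0.03 and -0.09, and *Zfp11* of -2.22 and -1.12.

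Few receptor genes held a strong tile in their body or 1 kb upstream, and the space between them was not counted. Of 1106 olfactory receptor genes 4 held one (0.362%), and of 321 vomeronasal receptor genes, which encode pheromone receptors, 9 (2.80%) held 12 tiles, against 4.68% of all genes. These shares depend on gene length, and the part of length in the low values was not tested. The vomeronasal tiles had mean differences of -0.13 and -0.43, with 0 past the test, and 7 of the 12 were lower in pair 1 and 11 in pair 2. *Vmn2r7* held 3 tiles and *Vmn2r60* 2.

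Among 28 germline genes that DNA methylation is known to silence, 6 (21.4%) held 1 tile each, against 4.68% of all genes, without regard to gene length. Their mean difference was 0.07 and -0.13, and 0 passed. *Stk31*, a germ cell kinase gene, had the highest level of these, 2.44 in day 8 control, with differences of -0.45 and -0.70. *Tex14*, needed for germ cell bridges, had 0.18 and -0.86. Of 15 pluripotency genes, 1 held a tile, *Esrrb*, an orphan receptor gene, with a level of 0.61 and differences of -0.13 and 0.43. None of 29 genes of the H3K9 and DNA methylation machinery and none of 40 Hox genes held a strong tile. In lists of this size a count of 0 is near the 4.68% of all genes. The rule also leaves out tiles with H3K27me3 at 1 or more above Input, and its part in the Hox count was not tested.

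Strong tiles with the most shared repeat words showed no loss past the test. At least 1 of 6 selected 31-mers was found in 885 strong tiles (11.2%). 31-mer 1 or 2 was found in 583 (7.41%), whose day 8 control levels were 1.87 and 1.39. Their mean differences were 0.18 and -0.03. The test was passed by 0, against 0.610% of all strong tiles, and 0 were at least 2-fold lower in both pairs, against 2.07%. In the other 1355 tiles with these words the differences were 0.23 and 0.08. With 40 or more CpG sites there were 265 such strong tiles, of which 0 passed, and 713 without these words, of which 26 passed. Of the 264 tiles past the Input minimum that carried 31-mer 4, 167 (63.3%) were strong tiles, the highest share of the 6 words, but the genome holds 1635 copies of it, most of them outside these tiles. The words were selected after the data were seen, and a word was kept only if at least 25% of its carrying tiles were strong tiles. A high share was thus set by the selection.

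31-mer 3 had mean differences of -0.32 and -0.48 in 92 strong tiles, of which 2 passed as lower. The 217 other tiles with it had -0.37 and -0.46. 31-mer 5 was also below 0 in both pairs, with -0.16 and -0.32 in 88 strong tiles, of which 0 passed. The 197 other tiles with 31-mer 5 had -0.16 and -0.28. Strong tiles with 31-mer 4 had 0.10 and -0.07, and those with 31-mer 6 had 0.02 and -0.13. High-copy strong tiles (232) had 0.0027 and -0.19, and 0 passed, against 0.610% of all strong tiles.

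Position went with the mean difference and with the share of tiles that passed, and CpG content with that share. Coding exon tiles had means of -0.26 and -0.41, and 22 of 323 (6.81%) passed. Intergenic tiles had -0.04 and -0.20, and 8 of 6103 (0.131%) passed. The medians were -0.08 and -0.17 in coding exon tiles and -0.01 and -0.19 in intergenic tiles. They thus differed in opposite directions in the 2 pairs, and part of the coding exon tiles carried the mean. The 23 tiles with 80 or more CpG sites had means of -0.81 and -1.28, but their medians were -0.14 and -0.65, and 8 of the 23 passed. The means did not follow CpG content below that, with -0.11 and -0.26 in tiles with 0 to 19 sites, 0.01 and -0.15 with 20 to 39, and -0.01 and -0.22 with 40 to 79. The share that passed was 0.167%, 0.484% and 1.88% in these classes. Tiles without a strong neighbour passed in 0.290% of cases and tiles in runs of 3 or more in 2.38%. Day 8 control levels were higher in the longer runs, 2.18 and 1.73 against 1.54 and 1.24, and the part of the level in this was not tested.

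The 8 tiles with the highest day 8 control levels, from which Input was not subtracted, were not among those that passed. This ranking favours tiles of high Input. Of the 8 tiles at 4 or more over Input in the day 4 control library, 2 passed as lower. In the *Tcte2* tile (chr17:13744001-13746000, intron), H3K9me3 was 7.51 and 6.65 in control and 7.28 and 6.34 in cKO, from 3334 and 1907 and from 860 and 1537 reads. It held 163 Input reads, against a median of 10 in strong tiles. *Tcte2* is named for its place in the mouse t complex. The next, an intergenic tile (chr17:13498001-13500000), had 5.92 and 4.99 against 5.52 and 4.74. A coding exon tile of *Sp110* (chr1:87488001-87490000), a nuclear body protein gene, had 5.42 and 5.21 against 5.55 and 5.14. It held 150 Input reads, and its day 4 control value over Input was 2.43. The control and cKO ranges overlapped in all 3.

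The other tiles of the 8 highest lay in an intron of *Smo*, the Hedgehog signal transducer gene, at a coding exon of *Eftud1*, a gene of ribosome assembly, and at intergenic places on chromosomes 2, 12 and 13. Differences of the 8 ran from -0.32 to 0.10, with 0 past the test. The fitted spread rose at the highest levels, where few tiles exist, and the SE reached 3.89 for the *Tcte2* tile, so changes there were not detectable with this fit.

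H3K9me2 did not pass in any strong tile at day 8, and over all 1254661 tiles tested 0% passed. At an unadjusted p under 0.05 there were 274 strong tiles (3.48%, 104 lower and 170 higher), against 6.44% of all tiles tested, and limma-voom also called 0 strong tiles. At least 2-fold higher in both pairs were 167 strong tiles (2.12%), against 2.11% of all tiles past the Input minimum, and at least 2-fold lower were 53 (0.674%), against 0.299%. H3K9me2 reads were fewer in strong tiles, with a median of 11 and 7 in day 8 control against 19 and 14 in other tiles. The part of counting error in these shares was not tested. At the 25 imprinted tiles the mean H3K9me2 difference was 0.46 and 1.09 at a control level of -2.07, where few reads were held, and the pairs differed from each other by more than the smaller value.

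H3K27me3 passed in 12 strong tiles at day 8, 11 higher and 1 lower in cKO. Over all 1255417 tiles tested, 0.0624% passed as higher and 0.182% as lower, and of the strong tiles 0.140% and 0.0127%. At least 2-fold higher in both pairs were 200 strong tiles (2.54%, against 0.995% of tiles past the Input minimum), and lower were 102 (1.30%, against 1.55%). Strong tiles held fewer H3K27me3 reads than other tiles, with a median of 9 and 10 in day 8 control against 13 and 15, and the part of counting error in this excess was not tested. The count of 12 was 0 without the trend and with GC bins, 23 with limma-voom and 97 with a replicate block. Without control replicate 2 it was 43 and without cKO replicate 1 it was 36, of which 20 were lower. Without cKO replicate 2 it was 12, of which 6 were lower and 6 higher, so the excess of higher tiles was not seen there.

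At some of these tiles, chosen here after their values were seen, H3K27me3 was higher where H3K9me3 was lower. One was at *Fkbp6*, a gene needed in meiosis, whose tile (chr5:135824001-135826000, coding exon) is among those of the imprinted list. H3K27me3 there went from 14 and 19 reads to 54 and 57, a change of 1.67 ± 0.30 (SE, limma adjusted p = 0.00481). H3K9me3 at this tile had 107 and 49 reads in control and 6 and 21 in cKO, a difference of -1.83 that did not pass (limma adjusted p = 0.107). The central *Habp4* tile (chr13:64270001-64272000) had 12 and 9 H3K27me3 reads in control and 27 and 41 in cKO, a rise of 1.58 ± 0.36 (SE, limma adjusted p = 0.0485). A tile 32781 bp from the start of *Lep* (chr6:29042001-29044000) rose by 1.33, while its H3K9me3 fell by 2.93.

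The reverse was seen at *Nnat*, where H3K27me3 fell from 39 and 36 reads to 12 and 11, by 1.80 ± 0.34 (SE, limma adjusted p = 0.0100), in the tile that lost H3K9me3. Of the 48 tiles that lost H3K9me3, H3K27me3 was higher in both day 8 pairs in 12 (25.0%), against 35.7% of all strong tiles, and its mean difference over the 48 was -0.24 and -0.15. The share with higher H3K27me3 was thus no larger among them than over all strong tiles.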

How the data were processed

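ChIP-seq reads had been trimmed with Trim Galore and aligned with Bowtie2 (2.2.9 per the submitters' processing notes) to NCBIM37, and reads of mapping quality under 20 had been dropped. The authors deposited log2 observed over expected reads per tile and library. Input was not subtracted by them. The methods of the study give 1 kb tiles, whereas the table holds 2 kb tiles, and removal of duplicates is not given in the sources used here. Low values stepped in whole reads (100% of them within 0.1 read), and whole read numbers could be worked out in each of the 19 libraries. A tile with no read carries the value of 0.9 read.

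GC content, CpG sites, 31-mers (1 in 32 sampled) and genes came from NCBIM37 and the GENCODE annotation of that build. Day 8 cKO and control were compared for each mark (limma 3.58.1, R 4.3.3, eBayes with a variance trend, two-sided, Benjamini-Hochberg over all tiles with a read, threshold 0.05). The code was also run on simulated reads, drawn without differences between replicates other than depth. That run cannot show how the fit behaves with the replicate differences seen here. This fit was preferred to one without a trend with the counts of both over all tiles known. Members, lists and tests were chosen with earlier results of these data known. Named tiles were the 8 highest in day 8 control at least 100 kb apart, the 6 lower tiles past the test with the largest change at least 10 kb apart, and, since none was higher, the 3 with the largest rise among those at least 2-fold higher in both pairs. Named genes were the 10 with the most tiles and up to 4 per list. Others are said to have been chosen after their values were seen. Depth was 5669098 to 26181489 reads per ChIP library. Alternatives covered the variance trend, limma-voom, a replicate block, a read minimum, GC bins, Input and leaving out libraries.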

Additional observations from a re-analysis of the deposited data

Results flagged for a closer look

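The X chromosome lay outside the rule. On it, 116 of 45831 tiles past the Input minimum met the same H3K9me3 and H3K27me3 thresholds, which is 0.253% against 0.713% on chromosomes 1 to 19, and above the 0.00655% that 3 tiles would make, the limit a count of 0 allows. Their mean H3K9me3 level was 1.21 and 0.93 in day 8 control, and the difference from control to cKO was -0.16 and -0.35, against -0.11 and -0.21 in other tiles of the X chromosome. The median Input value of these 116 tiles was -1.21, against -0.89 in the strong tiles of chromosomes 1 to 19, and the part of Input in the lower share was not tested.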

How the results depend on the processing

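With the replicate block, 5 strong tiles passed in H3K9me3 in place of 48, 97 in H3K27me3 in place of 12, and 0 at imprinted genes in place of 9, while the mean differences stayed the same by construction and H3K9me2 stayed at 0. Deviations of same-numbered libraries correlated at 0.052 for H3K9me3, 0.034 for H3K9me2 and 0.117 for H3K27me3 over tiles past the Input minimum with a mean of at least 10 reads, and at 0.256, -0.023 and 0.031 over strong tiles. With 2 pairs and no stated source of the number, they were taken to share only a number. Without the variance trend, and with GC bins, the counts were 0 in H3K9me3, 0 in H3K27me3 and 0 at imprinted genes, except that GC bins gave 1 in H3K9me2. limma-voom gave 84, 23 and 17 for the same 3 counts, and a mean of at least 10 reads gave 111, 19 and 18. Leaving out a library moved them between 8 and 408, between 12 and 43, and between 3 and 20. Of the 48 tiles, 47 passed with limma-voom and 8 without control replicate 1. The cause of these shifts was not tested.

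The H3K9me2 level difference was -0.85 and -0.80 without replicate 1 or 2, with an exact permutation p of 0.125, the smallest that 4 libraries allow. The differences relative to other tiles moved by less than their SD over pairs under every alternative run. For leaving out a pair and for the replicate block this was fixed in advance, so these say nothing on stability. For H3K9me3 the differences ran from -0.23 to 0.09 over all strong tiles and from -2.20 to -1.47 at imprinted genes, and these ends are the single pairs. The other alternatives gave -0.21 to -0.05 and -2.07 to -1.72. Depth limits single tiles: a median of 18 reads per strong tile in the shallow cKO library leaves smaller changes undetectable. The alternatives on imprinted genes and on Input were added after the data were seen.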
